A study of Arabidopsis thaliana with 13 samples.

Results

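AT3G15450, AT5G19120, AT1G23390, AT1G10140 and AT1G03610 are Arabidopsis thaliana genes whose transcripts were among those that fell most after induction of the transcription factor ANAC059, and that lie outside the low-oxygen response genes. They are 5 of the 13286 genes that had a probe set annotated to exactly 1 gene, and each was measured by 1 such probe set (258402_at, 249923_at, 262986_at, 264467_at and 264836_at, in the order given). They were picked by the size of their fall in the ANAC059 induction, so that fall is given as a description, and a call on it supports nothing. Other genes are called measured where a probe set was annotated to them alone. Probe sets without a gene name may hold further genes of the lists below.

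Transcript levels are log2 signals of 13 Affymetrix profiles of total RNA. The induced plants carried ANAC059 (2 profiles) or ANAC092 (3 profiles) in a vector that estradiol switches on, and their controls carried the empty vector. The empty vector had 3 profiles, and its replicates 1 and 2 also appear under titles that give normalization with ANAC059. All of these plants, controls included, were 3-week-old seedlings with a Col-0 background, raised on medium with sucrose and given 10 µM estradiol for 5 h before their shoots were taken. Leaf 11 came from soil-grown plants aged 38 days, with 1 profile each for an ANAC059 T-DNA line, an ANAC092 T-DNA line and Col-0 wild type. Titles name the induction profiles as biological replicates. How many independent transformants or pooled plants stood behind a profile, and which insertion alleles were used, is not given in the labels, so p-values measure the spread between these arrays.

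ANAC059 and ANAC092 are closely related NAC transcription factors, plant DNA-binding proteins known to promote leaf senescence. The 5 genes encode unrelated proteins. AT3G15450 encodes a small protein of the aluminium-induced family named for its YGL and LRDR amino acid motifs, and its transcript is known to accumulate when leaves are kept dark or short of sugar. AT5G19120 encodes a member of the aspartyl protease family. AT1G23390 encodes an F-box protein with kelch repeats; such proteins select targets for ubiquitination and breakdown, and AT1G23390 is known to target chalcone synthase, the entry enzyme of flavonoid synthesis. AT1G10140 encodes a conserved plant protein of unknown function, and AT1G03610 a protein of the uncharacterised DUF789 family.

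Some arrays stood apart from others of their group. Across probe sets, the SD of the difference between empty vector replicates 1 and 2 was 0.178, while replicate 3 was 0.386 and 0.351 away from them. In the ANAC092 induction, replicates 1 and 3 were 0.129 apart and replicate 2 was 0.364 and 0.343 away. The controls of the ANAC059 induction were taken to be empty vector replicates 1 and 2 once more: the difference between these replicates correlated at 0.883 across probe sets between both normalizations. On that reading both inductions share controls, though the labels do not state it outright. The SD of the difference between same-numbered empty vector arrays was 0.142 across these normalizations. ANAC092 induced replicates 1 and 3, at 0.129, were closer than that. Titles name them as biological replicates, and their independence was not tested. A list of 21 measured low-oxygen response genes had a median of -1.16, -1.20 and -1.20 on the ANAC092 induced arrays and of -0.94 on empty vector replicate 3, each taken against the average of empty vector replicates 1 and 2. On the ANAC059 induced arrays its median was -1.37 and -1.59 against the controls of that set. The 3′ signal of the actin control probe sets (r2 version) exceeded the 5′ signal by 1.01, 1.08 and 0.938 after ANAC092 induction, beside 0.760, 0.858 and 0.908 in empty vector replicates 1, 2 and 3. The older actin probe sets gave 2.47, 2.89 and 2.44 after ANAC092 induction, beside 1.96, 2.19 and 2.51 in those controls, so that replicate 3 lay among the induced arrays. After ANAC059 induction the r2 version gave 1.01 and 1.06, beside 0.779 and 0.880 in the controls, and the older version 2.59 and 2.45, beside 2.03 and 2.26. The GAPDH probe sets (r2 version) gave -0.07 to 0.16 on the induced arrays and -0.09 to 0.14 on the empty vector arrays. The older GAPDH probe sets gave 0.13, 0.18 and 0.25 after ANAC092 induction, beside 0.51, 0.07 and -0.14 in empty vector replicates 1, 2 and 3. After ANAC059 induction they gave -0.01 and 0.06, beside 0.45 and 0.03 in the controls of that set. Of 10 green leaf markers 2 were measured, RCA and PRK. Their mean log2 signal was 11.5 and 11.6 on the ANAC059 induced arrays, against 11.2 and 11.3 on the controls. RCA rose by 0.63 (limma adjusted p = 0.0251, called in 1 of 4 fits that left out 1 array), while PRK was at 0.07 (adjusted p = 0.664). The mean of both was 10.7 to 11.1 on the ANAC092 induced arrays, against 11.1 to 11.4 on the controls. There PRK was at -0.65 (limma adjusted p = 0.0788) and RCA at -0.15 (adjusted p = 0.786). On empty vector replicate 3, RCA differed from replicates 1 and 2 by 0.53 and PRK by 0.05. Of 5 root markers 3 were measured and none passed, with a mean of 5.77 and 5.84 on the ANAC059 induced arrays, against 5.86 and 5.93 on the controls. It was 5.93 to 6.36 on the ANAC092 induced arrays, against 5.91 to 6.09 on the controls. The part of these differences in the results below was not tested. No flower or dividing cell marker had a named probe set, and neither had ANAC059 or ANAC092, so the level of the induced factors was not checked.

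After ANAC059 induction the 5 genes were 3.66-fold (AT1G23390) to 5.01-fold (AT3G15450) below the empty vector. AT3G15450 had log2 signals of 9.27 and 9.53 on the ANAC059 induced arrays, against 11.81 and 11.64 on the empty vector arrays. Its change was -2.33 ± 0.12 (limma SE, n = 2 per group). The distance between the groups was many times that between arrays of either group. AT1G03610 had 8.59 and 8.70 on the induced arrays, against 10.89 and 10.82 on the empty vector arrays, a change of -2.21 ± 0.09. AT1G10140 had 9.06 and 8.92 on the induced arrays, against 11.26 and 10.99 on the empty vector arrays, a change of -2.14 ± 0.12. In these genes too, the induced arrays lay close together and far below both controls.

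The aspartyl protease family gene AT5G19120 had 9.79 and 10.13 on the ANAC059 induced arrays, against 12.23 and 11.93 on the empty vector arrays, a change of -2.12 ± 0.15. The F-box gene AT1G23390 had 7.34 and 7.25 on the induced arrays, against 9.21 and 9.13 on the empty vector arrays, a change of -1.87 ± 0.09. It was the smallest of the 5 changes. All 5 probe sets were called lower by limma in this fit, as were 1.34% of all 22746 probe sets (2.99% were called in either direction and 20.4% had an unadjusted p under 0.05). All 5 had both induced arrays below both controls, as had 26.8% of all probe sets. These counts follow from how the genes were picked. In bulk shoots, fewer cells that hold a transcript and less transcript per cell cannot be told apart.

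Among probe sets of 1 gene outside the low-oxygen list, the 5 genes held places 1 (AT3G15450), 2 (AT1G03610), 3 (AT1G10140), 4 (AT5G19120) and 6 (AT1G23390) by size of fall. The fifth place went to PDF1.2, a plant defensin gene that is not among the 5, at -2.08. Just beyond AT1G23390 came AT2G15880 at -1.78 and AT3G15630 at -1.69.

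**Figure D1:**
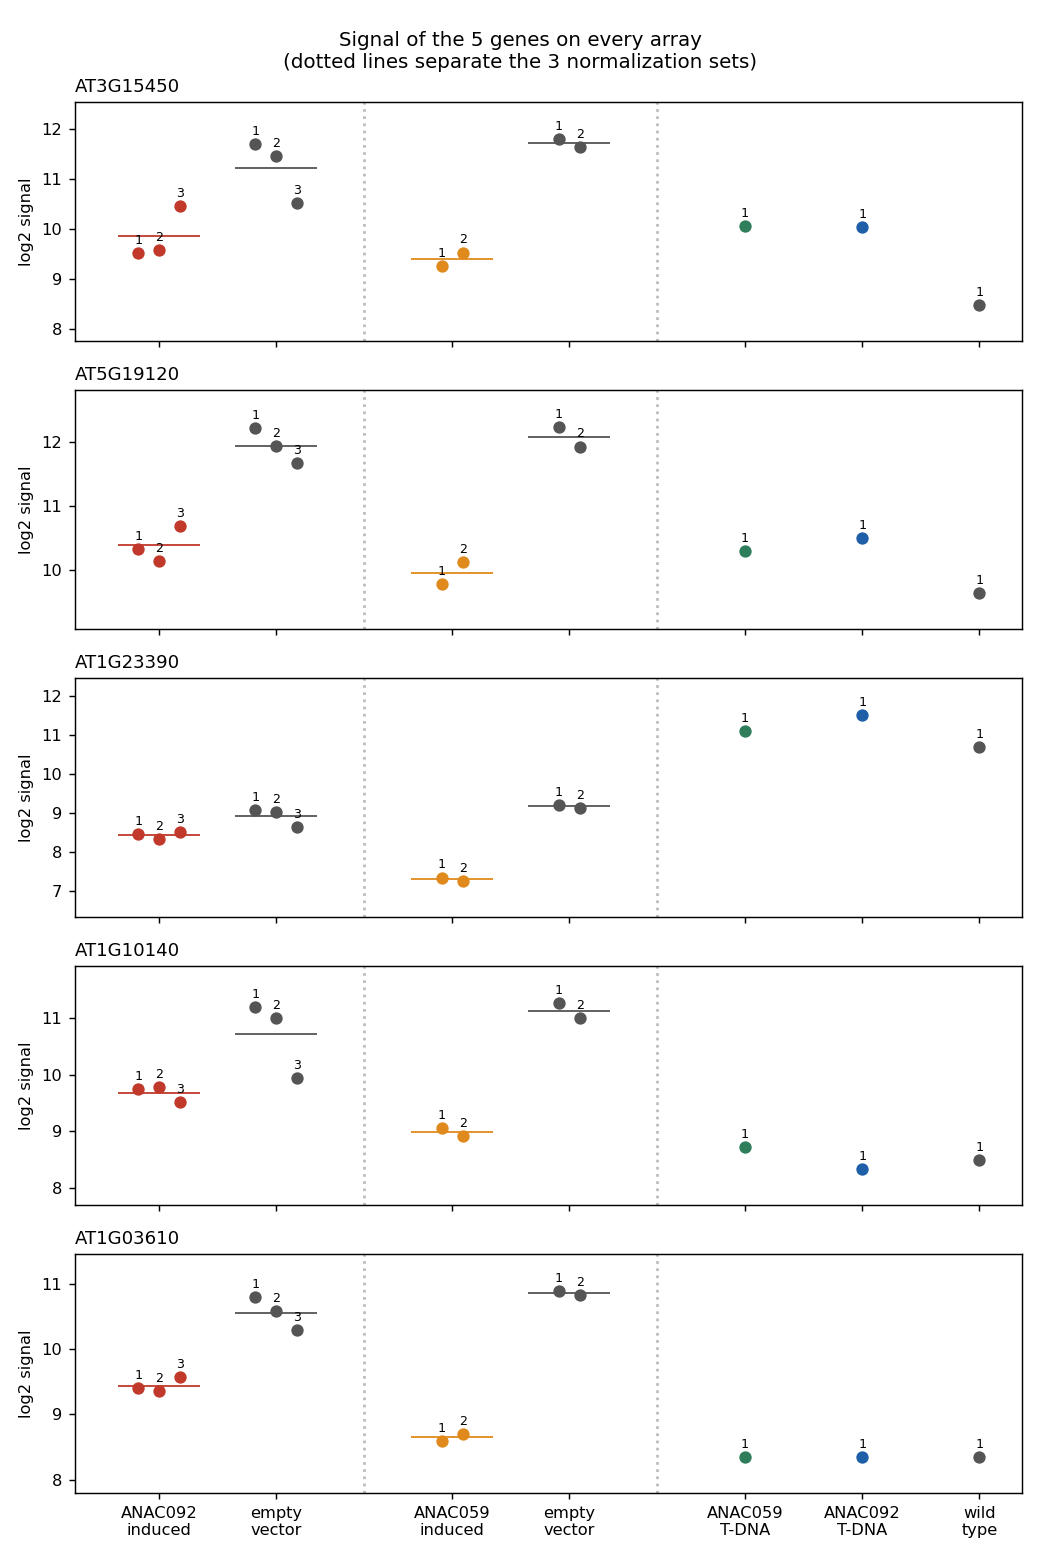
Log2 signal (vertical axes) of the 5 genes on each of the 13 profiles, with induced or T-DNA insertion arrays left of their controls, replicate numbers above the points and horizontal bars at group means. Dotted lines separate the 3 sets that were normalized separately, so heights compare within a set. AT3G15450 shows 10.46 on ANAC092 induced replicate 3, beside 10.52 on empty vector replicate 3.

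Induction of ANAC092 gave lower values in all 5 genes, with a change of -1.55 (AT5G19120) to -0.48 (AT1G23390). Of the 5, AT5G19120 and AT1G03610 fell at an adjusted p under 0.05 (limma, Benjamini-Hochberg over all 22746 probe sets), while 0.831% of all probe sets were called lower and 2.23% in either direction in the same fit. At an unadjusted p under 0.05 all 5 passed, against 12% of all probe sets in either direction. Every ANAC092 induced array lay below every empty vector array in all 5 genes, as it did in 12.4% of all probe sets. Against empty vector replicates 1, 2 and 3 singly, all 5 genes were again lower on every induced array, as were 33.3%, 30.5% and 41% of all probe sets. Since the genes were picked for high signal on empty vector replicates 1 and 2 relative to ANAC059 induced arrays, these comparisons are not independent of the choice. The median change of the 5 was -1.12, beside -0.03 over all probe sets.

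AT5G19120 had log2 signals of 10.33, 10.15 and 10.69 on the ANAC092 induced arrays, against 12.22, 11.93 and 11.67 on the empty vector arrays. Their nearest arrays, both numbered 3, differed by -0.97. The transcript fell 2.93-fold (-1.55 ± 0.19 SE, n = 3 per group, limma adjusted p = 0.00662) and was called in 6 of 6 fits that left out 1 array. Each of these fits kept at least 1 of the empty vector arrays used to pick the gene. Against empty vector replicates 1, 2 and 3 taken singly, the mean of the induced arrays differed by -1.83, -1.54 and -1.28. It was the 1 gene of the 5 that lay at least 1 log2 unit below replicate 3, and 0.286% of all probe sets lay that far below it. Replicate 3 was not a control for the ANAC059 fall that picked the genes. Earlier results of these data were known when the members were chosen. With any single empty vector array as the only control the adjusted p lay above 0.05 (limma, 0.128, 0.211 and 0.0942 with replicates 1, 2 and 3), in fits that take the single control to vary as the induced arrays do.

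AT1G03610 had 9.40, 9.35 and 9.57 on the ANAC092 induced arrays, against 10.80, 10.58 and 10.30 on the empty vector arrays. The nearest arrays of both groups differed by -0.73. It fell 2.17-fold (-1.12 ± 0.15 SE, limma adjusted p = 0.00929), and its adjusted p was 0.0590 when empty vector replicate 2 was left out. Its differences to empty vector replicates 1, 2 and 3 were -1.36, -1.14 and -0.86, with adjusted p of 0.0971, 0.136 and 0.0664 where that array was the only control (limma). For this gene and AT5G19120, each induced array lay clearly below replicate 3 as well as below replicates 1 and 2.

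AT3G15450 had 9.52, 9.58 and 10.46 on the ANAC092 induced arrays, against 11.71, 11.47 and 10.52 on the empty vector arrays. Induced replicate 3 and empty vector replicate 3 were 0.06 apart, so the groups barely separated. The change of -1.38 ± 0.36 did not pass (limma adjusted p = 0.132). Without empty vector replicate 3, with only the controls used to pick the gene left, it was -1.73 (limma adjusted p = 0.0453). Against the single empty vector arrays it was -1.85, -1.61 and -0.66. Induced replicates 1 and 2 lay at -0.998 and -0.94 from empty vector replicate 3, and induced replicate 3 at -0.06.

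At AT3G15450, ANAC092 induced replicates 1 and 3 were unusually far apart. Over all probe sets these arrays were closer than any other pair of 1 group in the set, but at this gene replicate 1 lay 0.94 below replicate 3, the 14th largest of 22746 absolute differences between them. AT5G19120 held place 326 with -0.36, AT1G10140 place 1248 with 0.24, AT1G03610 place 3047 with -0.18 and AT1G23390 place 11802 with -0.07.

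AT1G10140 had 9.75, 9.79 and 9.51 on the ANAC092 induced arrays, against 11.20, 11.00 and 9.94 on the empty vector arrays. The induced arrays were close together and the empty vector arrays were split. The change of -1.03 ± 0.30 did not pass (limma adjusted p = 0.196). Without empty vector replicate 3, with only the controls used to pick the gene left, it was -1.41 (limma adjusted p = 0.00771). Against replicates 1 and 2 the difference was -1.51 and -1.31, and against replicate 3 it was -0.26. Empty vector replicate 3 thus lay nearer to the induced arrays than to the other controls.

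AT1G23390 had 8.45, 8.34 and 8.51 on the ANAC092 induced arrays, against 9.06, 9.02 and 8.65 on the empty vector arrays. The change of -0.48 ± 0.14 did not pass (limma adjusted p = 0.176). Without empty vector replicate 3, with only the controls used to pick the gene left, it was -0.61 (limma adjusted p = 0.0287). Its differences to the single empty vector arrays were -0.63, -0.59 and -0.22. Among the 5 it had the smallest change after ANAC092 induction. Set side by side, its change was -1.87 after ANAC059 induction, where replicate 3 was no control. After ANAC092 induction it was -0.48 with replicate 3 among the controls and -0.61 without it. The 2 sets were normalized separately and were taken to share control hybridisations, and the difference between the inductions was not tested.

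**Figure D2:**
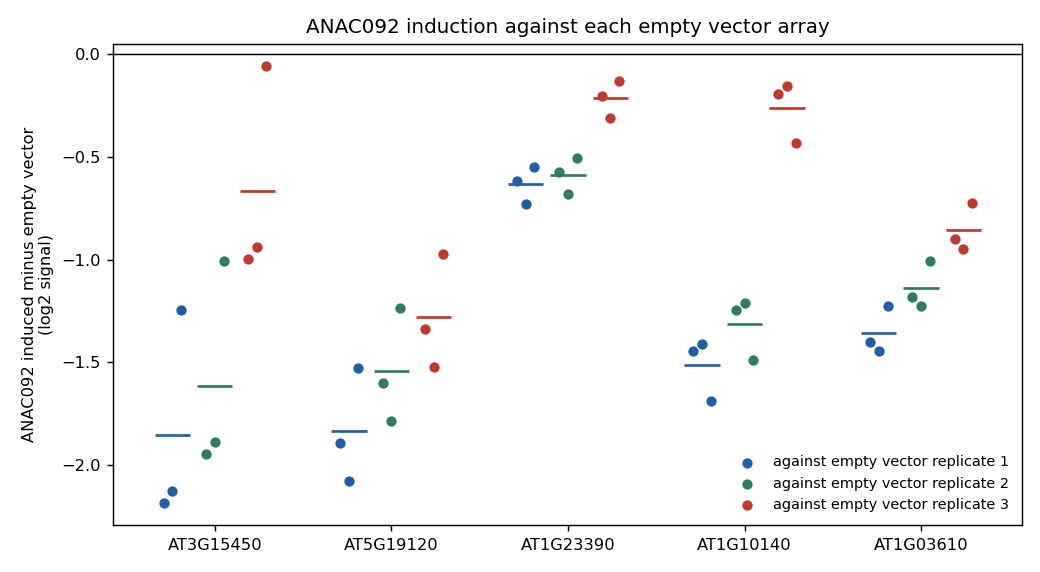
Difference in log2 signal (vertical axis) between each of the 3 ANAC092 induced arrays and 1 empty vector array, for the 5 genes (horizontal axis), with bars at the mean. Colours give the empty vector array used. All points lie below 0, and the mean against empty vector replicate 3 lies nearest to 0 in every gene, at -0.22 for AT1G23390 and -1.28 for AT5G19120.

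Empty vector replicate 3 lay below replicates 1 and 2 in all 5 genes. It did so at 42% of all probe sets, and the genes had been picked with replicates 1 and 2 as controls. Replicate 3 minus the mean of replicates 1 and 2 was -1.15 for AT1G10140 and -1.07 for AT3G15450, and 1.9% of all probe sets were lower there by at least 1. It was -0.41 for AT5G19120, -0.39 for AT1G23390 and -0.39 for AT1G03610. For comparison, replicate 1 exceeded replicate 2 by 0.05 (AT1G23390) to 0.29 (AT5G19120).

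The shift on empty vector replicate 3 can be set beside the fall after ANAC059 induction, for which replicates 1 and 2 were the controls. It came to 53.9% of that log2 change for AT1G10140 and 45.9% for AT3G15450, and to 21.1% for AT1G23390, 19.3% for AT5G19120 and 17.6% for AT1G03610. In the other induction it came to 81.5% of the log2 change from replicates 1 and 2 for AT1G10140, 64.7% for AT1G23390, 61.6% for AT3G15450, 31.3% for AT1G03610 and 24.3% for AT5G19120. ANAC059 arrays were not normalized with replicate 3, so no direct difference to it is given. The same-numbered empty vector arrays differed by up to 0.25 between the 2 normalizations in these genes.

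**Figure D3:**
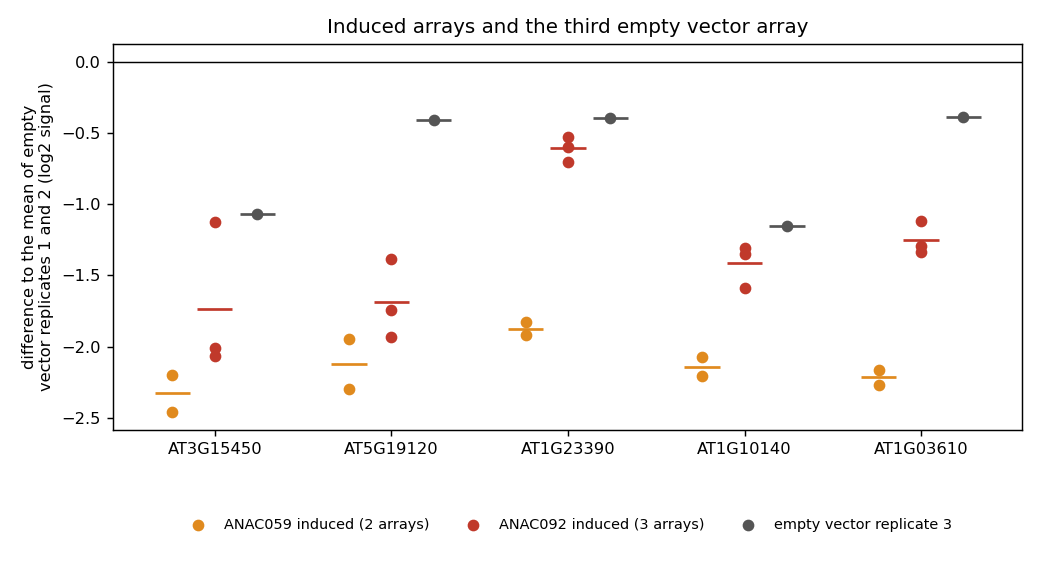
Difference in log2 signal (vertical axis) from the average of empty vector replicates 1 and 2, each taken from the array's own normalization set, for ANAC059 induced arrays, ANAC092 induced arrays and empty vector replicate 3, with bars at the mean. Empty vector replicate 3 is at -1.15 in AT1G10140 and -1.07 in AT3G15450, and between -0.41 and -0.39 in the other 3 genes.

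In leaf 11, AT3G15450 was higher in both T-DNA insertion lines. It had log2 signals of 10.07 in the ANAC059 line and 10.05 in the ANAC092 line, against 8.48 in wild type, that is 3.00-fold and 2.96-fold higher. Differences of at least 1 were found at 4.65% of all probe sets in the ANAC059 line and 0.98% in the ANAC092 line, and at 0.339% in both lines. In the ANAC092 line 59 of 22746 probe sets had a larger positive difference than AT3G15450, and in the ANAC059 line 273 had. With 1 array per genotype there was no replicate check, and both differences share the same wild-type array. The 3′ minus 5′ signal of actin (r2 version) was 2.84 in the ANAC059 line, 2.55 in the ANAC092 line and 2.61 in wild type. The older actin probe sets gave 4.18, 3.60 and 4.18 in that order, and the older GAPDH probe sets 1.94, 1.93 and 1.97. The part of this in the leaf differences was not tested.

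AT5G19120 had 10.30 in the ANAC059 line and 10.51 in the ANAC092 line, against 9.65 in wild type, a difference of 0.65 and 0.86. AT1G23390 had 11.11 and 11.51 in the 2 lines, against 10.68 in wild type, a difference of 0.42 and 0.83. In the ANAC092 line, 1.45% of all probe sets were at least as much higher as AT5G19120, and 1.55% as AT1G23390. In the ANAC059 line the shares were 9.02% and 13.6%.

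AT1G10140 had 8.72 in the ANAC059 line and 8.34 in the ANAC092 line, against 8.49 in wild type, with differences of opposite sign and under 0.25 in size. AT1G03610 had the same deposited value, 8.35, on all 3 leaf arrays. Identical values on all 3 leaf arrays occurred at 3354 of 22746 probe sets (14.7%) and at 0 on the 4 arrays of the ANAC059 set. A leaf difference of exactly 0 was thus common in this table. In total 3 of the 5 genes were above wild type in both lines, as were 15.9% of all probe sets.

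**Figure D4:**
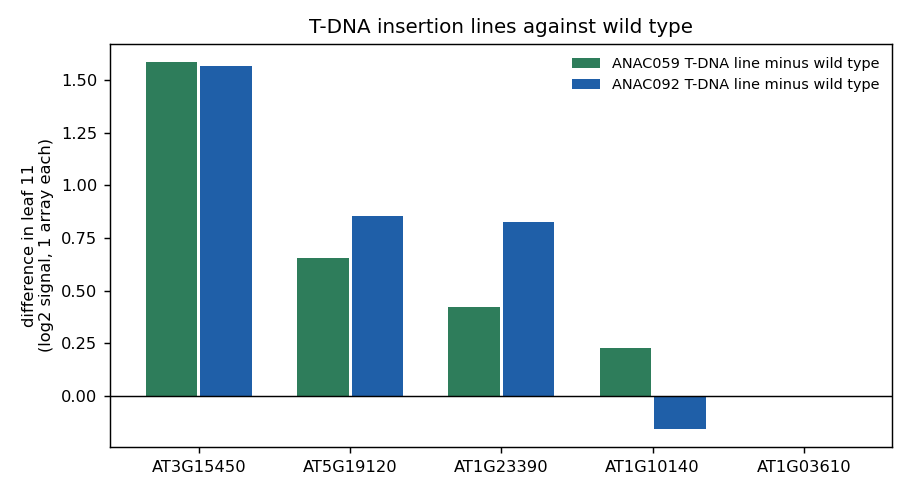
Difference in log2 signal between leaf 11 of each T-DNA insertion line and wild type (vertical axis, 1 array each, no error available) for the 5 genes. AT3G15450 shows 1.58 and 1.57, AT5G19120 0.65 and 0.86, AT1G23390 0.42 and 0.83, and AT1G03610 shows no bar because its 3 deposited values are identical.

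Most measured relatives of the 5 genes did not pass in either induction. Their lists were chosen with earlier results of these data known. In the YGL and LRDR family all 5 listed genes were measured. Beside AT3G15450, which was picked for its fall, 2 of the 4 others fell after ANAC059 induction, against 1.34% of all probe sets called lower. They were AT4G27450 (-1.53 ± 0.10 SE, limma adjusted p = 0.00224) and AILP1 (-0.74 ± 0.09, adjusted p = 0.0120), the last missing the threshold without either empty vector array. AT4G27450 is also a core low-oxygen response gene. After ANAC092 induction 1 of the 4, AILP1, fell (-0.79 ± 0.15, limma adjusted p = 0.0439) but was called in 1 of 6 fits that left out 1 array, the one without empty vector replicate 3. AT4G27450 was at -1.10 (limma adjusted p = 0.0508, or 0.00599 without empty vector replicate 3), AT5G43830 at -0.29 and AT3G22850 at -0.07. The last 2 passed in none of the fits that left out 1 array. In leaf 11, AT4G27450 differed by 0.94 in the ANAC059 line and -0.20 in the ANAC092 line, so it did not show the pair of near-equal differences of AT3G15450.

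The other listed relatives of AT1G10140 came to 1 gene, AT1G58420, which went the other way. It rose after ANAC059 induction by 1.01 ± 0.11 SE (limma adjusted p = 0.00907), missing the threshold without empty vector replicate 1 (adjusted p = 0.0645). After ANAC092 induction it was at 0.46 (adjusted p = 0.317), and empty vector replicate 3 minus replicates 1 and 2 was -0.59.

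Of 6 listed aspartyl protease genes 4 were measured. The 2 that lie before AT5G19120 in locus order, AT5G19110 and AT5G19100, were at -0.21 and -0.18 after ANAC059 induction and at -0.23 and -0.05 after ANAC092 induction, and none of these passed. AT5G48430 was at 0.50 after ANAC059 induction (limma adjusted p = 0.0327), a call lost in each of 4 fits that left out 1 array, and at 0.45 after ANAC092 induction (adjusted p = 0.573). Of 9 listed DUF789 genes 7 were measured, and apart from AT1G03610 none passed in either induction. The others were AT4G16100, AT5G49220, AT5G23380, AT4G28150, AT1G17830 and AT2G01260, and their changes ran from -0.19 to 0.34 after ANAC059 induction and from -0.36 to 0.27 after ANAC092 induction. The kelch F-box gene AT1G51550, the 1 other measured gene of 6 listed, was at -0.13 and 0.03. In the flavonoid pathway 1 of 11 listed genes was measured, the dihydroflavonol reductase gene DFR, at -0.06 and 0.03, neither passing. Its mean log2 signal was low, 5.91 on the ANAC092 induced arrays and 5.88 on their controls, where array medians were 7.55 to 7.71. A fall could therefore have been missed.

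**Figure D5:**
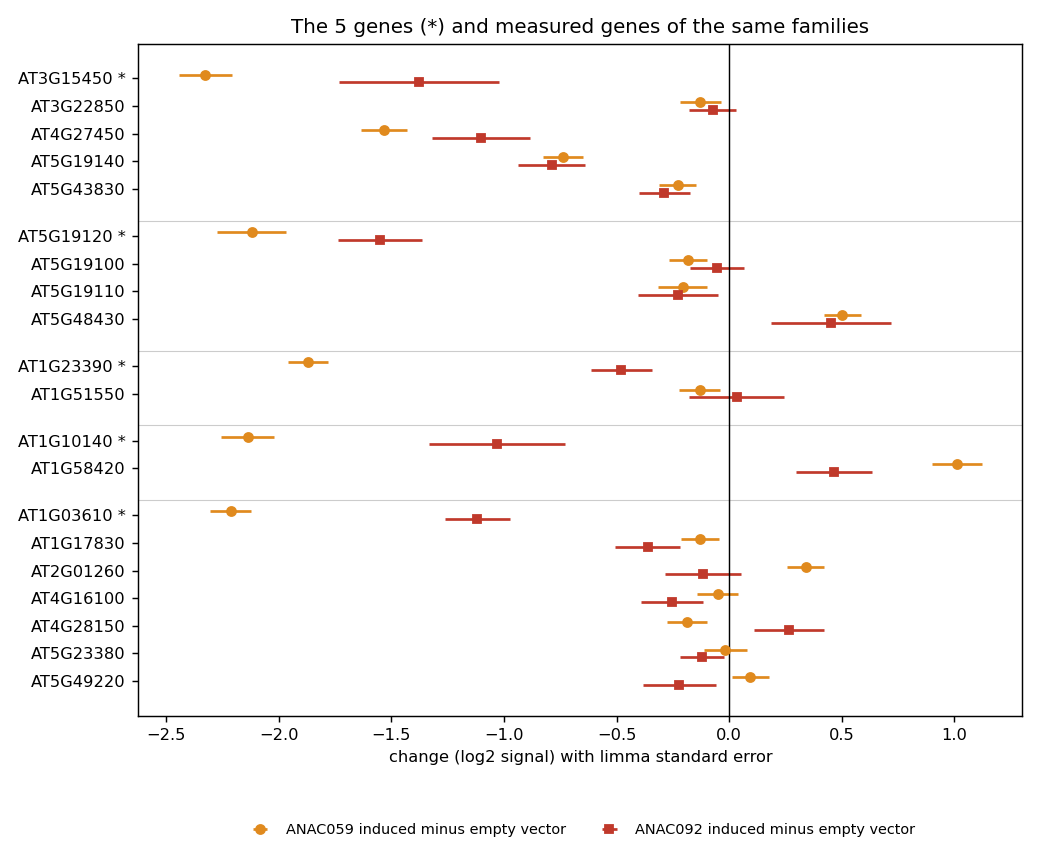
Change in log2 signal (horizontal axis, bars are limma standard errors) of the 5 genes, marked by asterisks, and of the measured genes listed with them, from top to bottom the YGL and LRDR family, aspartyl proteases, kelch F-box proteins, the AT1G10140 family and DUF789 proteins. Circles give ANAC059 induced minus empty vector and squares ANAC092 induced minus empty vector. AT5G19140 is the locus of AILP1. Of the relatives, AT4G27450 lies nearest to the marked genes at -1.53 and -1.10, and AT1G58420 lies at 1.01 and 0.46.

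A list of 26 genes known to rise in darkness or sugar shortage had 4 measured members. The list was chosen with earlier results of these data known, and its genes are named here after their values were seen. After ANAC059 induction 2 of the 4 fell, where 1.34% of all probe sets were called lower: AKINBETA1, a regulatory subunit of the energy-sensing kinase SnRK1 (-1.08 ± 0.09 SE, limma adjusted p = 0.00401), and MCCA, an enzyme of leucine breakdown (-1.0015 ± 0.11, adjusted p = 0.00839, or 0.0608 without empty vector replicate 1). IVD, which acts in the same breakdown route, was at 0.09 and the ubiquitin ligase gene ATL8 at 0.35, neither passing. After ANAC092 induction none of the 4 passed: MCCA was at -0.70 (limma adjusted p = 0.0549), AKINBETA1 at -0.75 (adjusted p = 0.0753), IVD at -0.26 and ATL8 at 0.48. Without empty vector replicate 3, which was no control after ANAC059 induction, MCCA and AKINBETA1 passed (limma adjusted p = 0.0154 and 0.0347). IVD and ATL8 passed in none of the fits that left out 1 array. The list's median change was -0.46 after ANAC059 induction and -0.48 after ANAC092 induction, and the medians of all probe sets were -0.01 and -0.03. Empty vector replicate 3 minus replicates 1 and 2 was -0.42 for AKINBETA1 and -0.41 for MCCA.

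Of the 45 listed low-oxygen response genes 21 were measured. After ANAC059 induction 17 of the 21 fell, where 1.34% of all probe sets were called lower, and after ANAC092 induction 7 fell, where 0.831% were. The list was chosen with these falls known. Empty vector replicate 3 was a control only after ANAC092 induction, so the counts of 17 and 7 rest on unlike controls. Without that array, every measured gene of the list passed after ANAC092 induction except AT5G44730, AT5G42200 and AT1G05575. Of the 17, AT4G24110 was called in 0 of 4 fits that left out 1 array, AT1G26270 and AT1G19530 in 2, AT4G10270 in 3 and the others in all 4. Of the 7, AT1G74940 and AT5G54960 (PDC2) were called in 1 of 6 fits that left out 1 array, AT4G17260 in 3 and the other 4 in all 6. These 4 also had the largest changes, AT3G10040 (-1.66, limma adjusted p = 0.000356), AT5G26200 (-1.59, adjusted p = 0.00767), AT3G27220 (-1.28, adjusted p = 0.00134) and AT1G26270 (-1.0022, adjusted p = 0.00506).

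Over the 6 arrays of the ANAC092 set the 5 genes followed each other with Pearson correlations of 0.842 (AT5G19120 with AT1G10140) to 0.995 (AT5G19120 with AT1G03610). These arrays fall into 2 groups and share their normalization. The genes were also picked for high signal on empty vector replicates 1 and 2, which by itself favours likeness among them. The values therefore describe likeness and have no test. Among 1244 probe sets with a locus and a range of at least 1 over the 6 arrays, AT5G19120 and AT1G03610 were each other's closest match. The next for AT5G19120 were AT3G49790 (0.990) and AT4G17900 (0.987), and for AT1G03610 they were the low-oxygen response gene AT1G74940 (0.987) and AT2G39400 (0.984).

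AT1G10140 was most like CML38, a calmodulin-like gene of the low-oxygen response (0.994), followed by AT3G23170 (0.985) and AT5G10040, another gene of the low-oxygen list (0.977). On empty vector replicate 3, CML38 differed from replicates 1 and 2 by -1.16 and AT5G10040 by -1.90, beside -1.15 for AT1G10140. AT1G23390 was most like AT2G29310 (0.997), AT2G15880 (0.995) and AT1G76600 (0.994).

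AT3G15450 was most like AT2G20670 (0.973), AT1G72800 (0.966) and AT2G29310 (0.963). In leaf 11, which the likeness did not use, AT2G20670 had log2 signals of 8.75 in the ANAC059 line and 8.68 in the ANAC092 line, against 6.88 in wild type, differences of 1.87 and 1.80 beside 1.58 and 1.57 for AT3G15450. AT1G72800 and AT2G29310 differed by -0.30 and -0.65 in the ANAC059 line and by 0.21 and 0.23 in the ANAC092 line. On the arrays that gave the likeness, AT2G20670 had 8.32, 8.47 and 9.07 after ANAC092 induction, against 9.95, 9.40 and 8.93 on the empty vector arrays, where induced replicate 3 lay above empty vector replicate 3. After ANAC059 induction, with controls taken to be shared, it was at -1.64 (limma adjusted p = 0.00926).

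The direct neighbours of the 5 genes on the chromosome were measured for 3 of them. AT3G15440 and AT3G15460 beside AT3G15450, AT5G19110 and AT5G19130 beside AT5G19120, and PSB27 and AT1G03620 beside AT1G03610 were at -0.36 to 0.24 after ANAC059 induction and at -0.27 to 0.20 after ANAC092 induction. None of these 6 passed in limma in either induction (adjusted p 0.101 to 0.973).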

How the data were processed

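The authors deposited log2 signals per probe set, made with RMA according to the submitters' processing notes, with the version not given in the sources used here. The labels state that the ANAC092, ANAC059 and leaf profiles were normalized as 3 separate sets, so every comparison stayed within a set. Of 22810 probe sets, 64 controls were left out and 22746 tested. Platform annotation gave 1 gene for 13513 probe sets (13436 with a locus in the TAIR10.1 gene table, used for names and neighbours) and several for 503. Differences were fitted with limma 3.58.1 (R 4.3.3, group as the only term, two-sided, Benjamini-Hochberg over all tested probe sets, threshold 0.05), tested on simulated data. The number of arrays limits the precision. Leaf differences had no test. Members and gene lists were chosen with earlier results of these data known. Text names the 5 genes, their listed relatives, up to 4 genes per list that passed in the ANAC092 set, the 3 closest matches of each gene over that set, and the 2 genes just beyond the smallest fall. PDF1.2, the energy shortage genes, DFR, RCA, PRK, PDC2, AT4G17260 and the flanking genes fall outside this rule and were added after their values were seen. Alternatives covered normalization, dim probe sets, the variance model, single arrays, the choice of controls and the replicate number as a block.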

Additional observations from a re-analysis of the deposited data

How the results depend on the processing

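All 5 genes kept a negative change in each of 14 alternative fits of the ANAC092 induction and in each of 8 of the ANAC059 induction. Leaving out 1 array in turn, the ANAC092 change ranged from -1.73 to -1.14 for AT3G15450, -1.70 to -1.41 for AT5G19120, -0.61 to -0.40 for AT1G23390, -1.41 to -0.79 for AT1G10140 and -1.25 to -0.998 for AT1G03610. AT3G15450, AT1G23390 and AT1G10140 gained a call without empty vector replicate 3, and AT1G03610 lost its call without empty vector replicate 2. Without replicate 3 the controls were replicates 1 and 2 alone, which had served to pick the genes. The gained calls are therefore not independent of the choice. With a single empty vector array as the only control, AT5G19120 and AT1G03610 missed the threshold at -1.83 and -1.36 (replicate 1), -1.54 and -1.14 (replicate 2), and -1.28 and -0.86 (replicate 3); replicates 1 and 2 as lone controls were added after the data were seen, and these fits hold fewer arrays. The ANAC059 change ranged from -2.46 to -2.19 for AT3G15450, -2.29 to -1.95 for AT5G19120, -1.91 to -1.83 for AT1G23390, -2.27 to -2.002 for AT1G10140 and -2.27 to -2.16 for AT1G03610.

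Calls over the whole table, 507 after ANAC092 and 679 after ANAC059 induction, ranged from 209 (without empty vector replicate 2) to 787 (without empty vector replicate 3) and from 161 (without empty vector replicate 1) to 444 (without induced replicate 1). With ANAC092 induced replicates 1 and 3 averaged, since they were so close, 242 were called. In that fit AT5G19120 and AT1G03610 kept their calls (limma adjusted p = 0.0164 and 0.0356), and the other members did not pass. Correlations of same-numbered deviations were -0.107, 0.271 and 0.0968 in the ANAC092 set and 0.0281 in the ANAC059 set. With so few arrays these values do not settle whether replicate numbers paired the arrays. With the replicate number as a block, AT1G10140 passed after ANAC092 induction (-1.03, limma adjusted p = 0.0300) and the ANAC059 count was 0 in limma, with 4131 probe sets at an unadjusted p under 0.05 (4649 without the block). Leaf differences moved by less than 0.1 under quantile normalization or median centring; AT1G03610, at 0 as deposited, took small values of either sign. The search for promoter motifs was not run, since no promoter sequences were used here.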
